A study of Mus musculus with 2 samples.

Results

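The miR-15/16 family and the related pair miR-322 and miR-503 were followed in the mouse tongue primordium between the embryonic stages E10.5 and E11.5. They were chosen by name: mmu-miR-15a, mmu-miR-15b, mmu-miR-16, mmu-miR-195, mmu-miR-497, mmu-miR-322 and mmu-miR-503 (mmu marks mouse and is left out from here on), which are 7 of the 1080 miRNAs on the array, each read by a pair of probes (14 of 2780 probes). The tissue, from ICR mice, was the middle of the mandibular arch, with no genotype or treatment named in the labels, and muscle regulatory genes become active in it in this window, per the series description. RNA of 40 embryos was pooled at each stage, and each pool was hybridised to 1 one-colour Agilent miRNA array labelled with Cy3. With 1 pool per stage there is no replicate, so no test was made, and each value is a description of these 2 arrays. Errors are taken over the repeated spots of a probe within an array, and the number of arrays limits the precision. In whole tissue, fewer cells of a type and less of a miRNA per cell cannot be told apart.

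A miRNA guides the Argonaute protein to messenger RNAs that pair with its seed, the bases near its 5′ end, and lowers their translation and stability. Members of the miR-15/16 family are known to repress cyclins, cyclin-dependent kinases and the survival factor Bcl2, and so to slow the cell cycle. miR-322 (the mouse form of miR-424) and miR-503 are made from 1 X-linked transcript, carry a closely related seed, and are known from cultured myoblasts to rise on differentiation and to promote cell cycle exit, in part through the phosphatase Cdc25a. The question put to the data was whether this pair and the family proper differed alike between the stages.

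The mature sequences show what the members share. Each is printed 5′ to 3′ from RefSeq (GRCm38.p6 table, all 7 matched), with the seed, bases 2 to 8, in capitals.
miR-15a: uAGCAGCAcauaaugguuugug
miR-15b: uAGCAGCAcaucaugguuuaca
miR-16: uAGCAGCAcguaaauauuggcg
miR-195: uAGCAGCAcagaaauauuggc
miR-497: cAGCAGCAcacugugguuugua
miR-322: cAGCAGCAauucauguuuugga
miR-503: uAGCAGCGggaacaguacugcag
The seed AGCAGCA was common to 6 of the 7, miR-322 included. miR-503 had AGCAGCG. Over the whole length, seed included, likeness varied between members. Aligned at base 1, miR-16 and miR-195 were identical at 19 of 21 bases and miR-15a and miR-15b at 18 of 22. miR-322 and miR-503 were identical at 11 of 22. In the RefSeq table, 11 mature miRNAs held the same bases 2 to 7 as miR-15a, of which 7 were found on the array, the 7 described here.

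The members come from pairs of neighbouring hairpins (GRCm38.p6). On chromosome 3, miR-15b (69009775 to 69009796, plus strand) and miR-16 (69009918 to 69009939) are 121 bases apart within Smc4, which encodes a condensin subunit. On chromosome 14, miR-15a (61632075 to 61632096, minus strand) and a second copy of miR-16 (61631936 to 61631957) are 117 bases apart within the noncoding RNA gene Dleu2. On chromosome 11, miR-497 (70234730 to 70234751) and miR-195 (70235062 to 70235082, both plus strand) are 310 bases apart, in no host gene of the table. On the X chromosome, miR-322 (53054306 to 53054327) and miR-503 (53054027 to 53054049, both minus strand) are 256 bases apart within the noncoding RNA gene C430049B03Rik. Both copies of miR-16 give the same mature RNA, so its probes cannot separate the chromosome 3 and chromosome 14 loci.

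Array probes are DNA complementary to the 3′ part of a miRNA, and those of this group differ in how far they reach into the seed. The probe pairs of miR-503 and the longer probes of miR-16 and miR-195 are printed 5′ to 3′, with the bases that pair with the seed in capitals. Detection of miR-503 at E10.5 turned on its probes, and miR-16 and miR-195 are the members closest in sequence.
miR-503 probe a: ctgcagtactgttcc
miR-503 probe b: ctgcagtactgttccC
miR-16 probe b: cgccaatatttacgTGCT
miR-195 probe b: gccaatatttctgTGCTGC
The miR-503 probes reached 0 and 1 bases of the seed, and all 4 probes of miR-15a and miR-322 covered all 7. Against the same positions of the other members, the printed miR-195 probe had 2 mismatches to miR-16, and the miR-16 probe had 3 to miR-195. The miR-503 probes had at least 10 mismatches to any other member. Whether one member's RNA was read by another member's probe was not tested.

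The E11.5 array was the brighter one. Of 137 miRNAs measured at both stages, that is with a probe on which at least 50% of spots were well above background on each array, 90.5% were the brighter at E11.5 before scaling, by a median log2 difference of 1.24. Each array was therefore divided by the 75th percentile of its mean probe intensities, taken over probes that were detected on both, which took 1.31 off every log2 difference and left a median of -0.07. A scaled difference is thus relative to the bulk of the measured miRNAs. The array's own control probes were also brighter on the E11.5 array, by a median log2 ratio of 0.49 over the 20 detected on each array. Counts of cell type markers above background also differed. At E10.5 none of 4 striated muscle miRNAs was called, against 4 of 4 a day later (summed mean intensity 15.9 and 456). Mesenchymal miRNAs went from 3 to 4 of 5, epithelial miRNAs from 4 to 5 of 7, and leukocyte miRNAs from 0 to 1 of 4. The calls for 1 of 2 endothelial, 1 of 2 erythroid and 1 of 3 neural miRNAs stayed the same in number. Over all 1080 miRNAs the calls went from 144 to 199, with the E11.5 array the brighter one. A count that rose by 1 is thus not read as more of a cell type. The 4 epithelial miRNAs measured at both stages were all lower at E11.5 as scaled, 3 of them at least 2-fold.

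The 5 members measured at both stages lay in separate ranges. Relative to the other miRNAs, miR-15b differed by a log2 of -0.84 ± 0.010 (spot SE), miR-15a by -0.82 ± 0.020 and miR-16 by -0.73 ± 0.017, all lower at E11.5 as scaled although brighter before scaling. The pair was on the other side of 0, at 0.18 ± 0.023 for miR-322 and 0.62 ± 0.054 for miR-503. miR-195 and miR-497 came above background at E11.5 only, as did 5.74% of the 1080 miRNAs, and no member did so at E10.5 only (0.648% of the 1080). None of the 5 was 2-fold apart as scaled, whereas 17.5% of the 137 measured miRNAs were, 3.65% higher and 13.9% lower. miR-503 passed 2-fold with Feature Extraction's own detection flag in place of the spot rule, at a scaled log2 difference of 1.07. With a floor in place of the filter it was at 0.31. Both values take in its shorter probe, which had 0 of 20 spots well above background at E10.5. miR-503 also passed 2-fold under 2 other scalings, at 1.84 with the 75th percentile over every probe and 1.45 with control probes. Under the first of these miR-322 did so too, at 1.39. The 3 family members were below 0, as were 52.6% of the 137, and the pair above it, as were 47.4%.

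miR-15b, from the Smc4 locus, was detected by every spot at both stages. Its longer probe ran from 817 to 882 at E10.5 (median 855, mean 852 ± 16.5 SD, 19 spots) and from 1157 to 1308 at E11.5 (median 1234, mean 1234 ± 42.3, 20 spots), in units of unscaled intensity. The shorter one gave 528 ± 14.96 and 706 ± 27.6. On both probes every E11.5 spot was above every E10.5 spot, and the unscaled ratios were 1.45-fold and 1.34-fold, well short of the typical miRNA of the array. The scaled log2 differences of the probes were -0.78 ± 0.013 and -0.90 ± 0.016, a gap of 0.12 that exceeds its spot SE of 0.020.

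miR-15a, the Dleu2 partner, was dimmer but differed by the same amount. Its probe that spans the whole miRNA ran from 115 to 161 at E10.5 (median 137, mean 136 ± 11.3, 20 spots) and from 171 to 209 at E11.5 (median 189.6, mean 189.7 ± 10.68, 20 spots). Its other probe gave 119 ± 4.37 and 167 ± 9.89. The spots of the stages did not overlap on either probe, and the scaled differences of -0.83 ± 0.032 and -0.82 ± 0.023 were within their spot error of each other.

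miR-16, which both loci encode, followed its partners. Its longer probe ran from 335 to 382 at E10.5 (median 362, mean 359.7 ± 15.4, 19 spots) and from 513 to 573 at E11.5 (median 539, mean 537 ± 15.6, 18 spots). Its shorter probe gave 95.8 ± 7.84 and 144 ± 6.13. The scaled differences of the probes were -0.74 ± 0.017 and -0.73 ± 0.030. miR-16 stood 0.09 ± 0.026 above miR-15a and 0.11 ± 0.020 above miR-15b, while miR-15a and miR-15b were 0.013 ± 0.022 apart, within their spot error. The family's measured members thus lay within 0.11 of each other on the log2 scale. The probes of miR-15b alone were 0.12 apart, and the spot SE leaves out that spread between probes. These values therefore do not separate miR-16 from miR-15b.

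**Figure D1:**
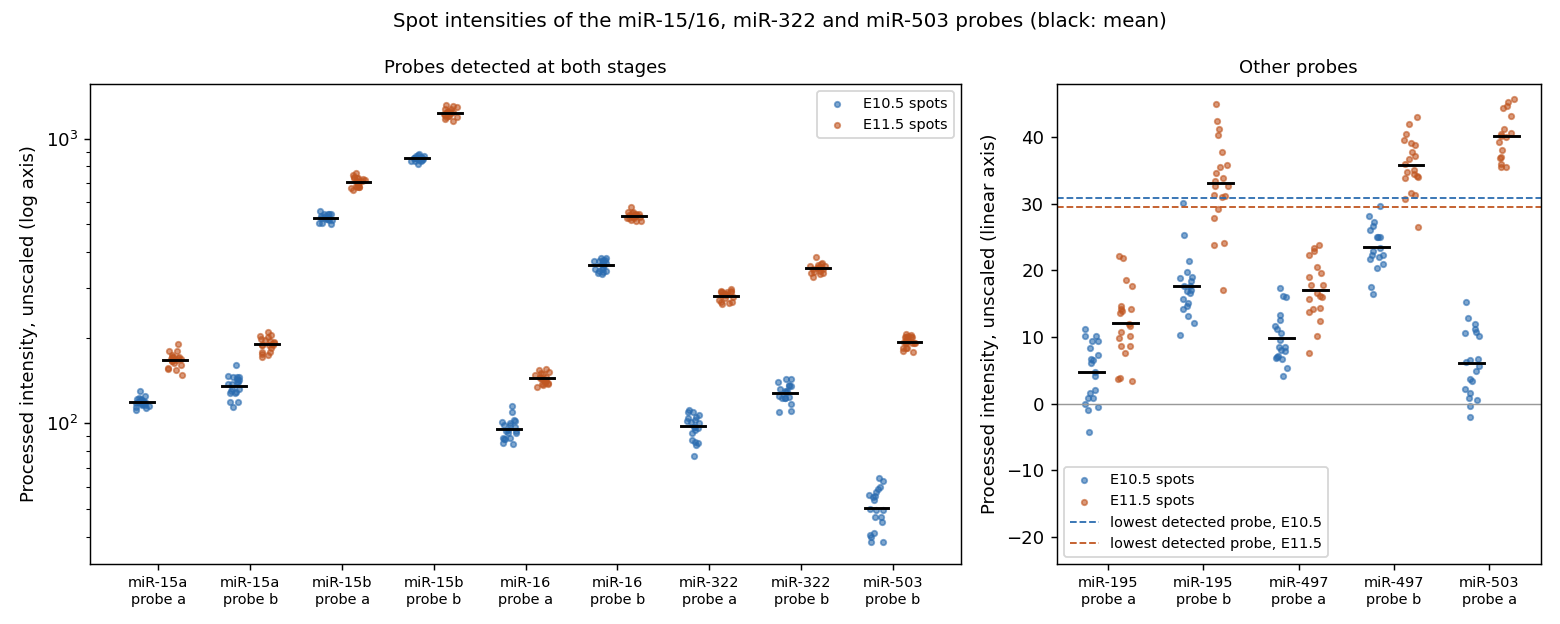
Unscaled processed intensity of each spot of the 14 member probes at E10.5 (blue) and E11.5 (orange), with outlier spots left out and the mean as a black line; the left panel (log axis) holds the 9 probes detected at both stages and the right panel (linear axis) the other 5, with the lowest detected probe of each array dashed (30.9 and 29.5). On each of the 9 every E11.5 spot is above every E10.5 spot, as on 80.7% of the 218 probes detected on both arrays. The steps of miR-322 and miR-503 are larger than those of miR-15a, miR-15b and miR-16.

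Before scaling, the stage ratio of miR-322 was larger than those of the family members. Its whole-length probe ran from 109 to 144 at E10.5 (median 129, mean 128 ± 10.04, 18 spots) and from 325 to 383 at E11.5 (median 353, mean 351 ± 13.3, 18 spots). Its other probe gave 97.6 ± 9.65 and 281 ± 10.46. The unscaled ratio over both probes was 2.81-fold, against 1.40-fold for miR-15a, which has probes of the same lengths and full seed coverage. The scaled differences of the probes were 0.14 ± 0.030 and 0.21 ± 0.034.

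miR-503 had the largest unscaled ratio of the 5 measured members. Its 16-base probe ran from 38.4 to 64.3 at E10.5 (median 49.9, mean 50.5 ± 8.23, 20 spots) and from 178 to 205.5 at E11.5 (median 194.0, mean 194 ± 8.28, 20 spots), an unscaled ratio of 3.83-fold. Its 15-base probe, which covers no base of the seed, was not well above background on any of 20 spots at E10.5 (6.16 ± 4.93, with negative controls at 7.87 ± 6.16). This probe was well above background on all 17 spots at E11.5 (40.2 ± 3.45). The miR-503 value therefore rests on 1 probe. It was 0.45 ± 0.059 above miR-322 on the log2 scale.

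Before scaling, the 9 member probes detected at both stages had every E11.5 spot above every E10.5 spot, as did 80.7% of the 218 probes detected on both arrays. Unscaled, 2 of the 5 measured members, miR-322 and miR-503, were at least 2-fold brighter at E11.5, where 64.2% of the measured miRNAs were. Among the 137 miRNAs, miR-15b, miR-15a and miR-16 ranked 30, 31 and 37 from the lowest scaled difference. miR-322 ranked 50 and miR-503 ranked 10 from the highest, and 50 miRNAs lay between miR-16 and miR-322.

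**Figure D2:**
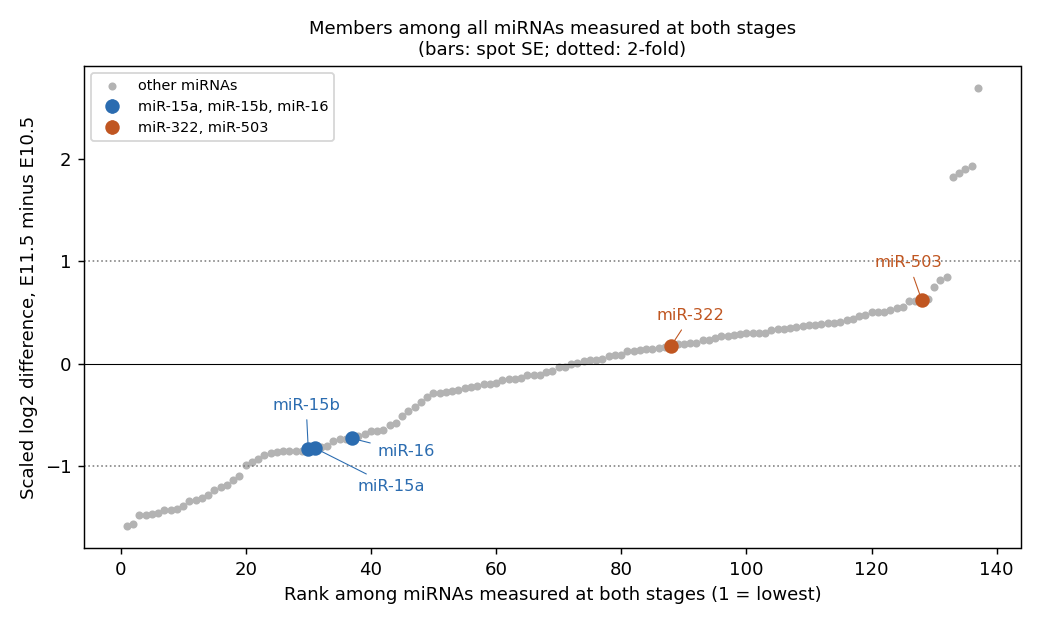
Scaled log2 difference, E11.5 minus E10.5, of the 137 miRNAs measured at both stages in rank order, with the spot SE as bars on the members and 2-fold as dotted lines. miR-15a, miR-15b and miR-16 (blue) lie from -0.84 to -0.73, miR-322 (orange) at 0.18 and miR-503 (orange) at 0.62.

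The contrast between the pair and the family was the measure that scaling by 1 factor per array cannot move. The log2 difference of miR-322 exceeded the mean of miR-15a, miR-15b and miR-16 by 0.97 ± 0.024, a factor of 1.96, and that of miR-503 exceeded it by 1.42 ± 0.055, a factor of 2.68. In all 6 pairings of miR-322 or miR-503 with one of the 3, the pair member was higher, by 0.91 to 1.46. This order held in all 15 ways of processing the files, the reported one included. Ways that changed only a factor per array, or which other miRNAs were kept, could not change it. The sizes were smaller with normexp background correction, 0.67 for miR-322 and 0.73 for miR-503. No replicate shows how far such a contrast varies between pools.

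The signs of miR-15a, miR-15b and miR-16 moved with the scaling, while miR-322 and miR-503 stayed above 0 in all 15 ways. In each way miR-15a, miR-15b and miR-16 lay below the median over all measured miRNAs and miR-322 and miR-503 above it. Scaling by 1 factor per array could not change that order, since it moves the median by the same amount. Before scaling, miR-15a, miR-15b and miR-16 were brighter at E11.5 by 0.49, 0.48 and 0.58 on the log2 scale. They stayed above 0 when the 75th percentile was taken over all 2780 probes, and scaled by control probes they were at -0.0016, -0.015 and 0.091. miR-322 was at 0.0099 and miR-503 at 0.063 with normexp, where the median over all miRNAs was -0.28.

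**Figure D3:**
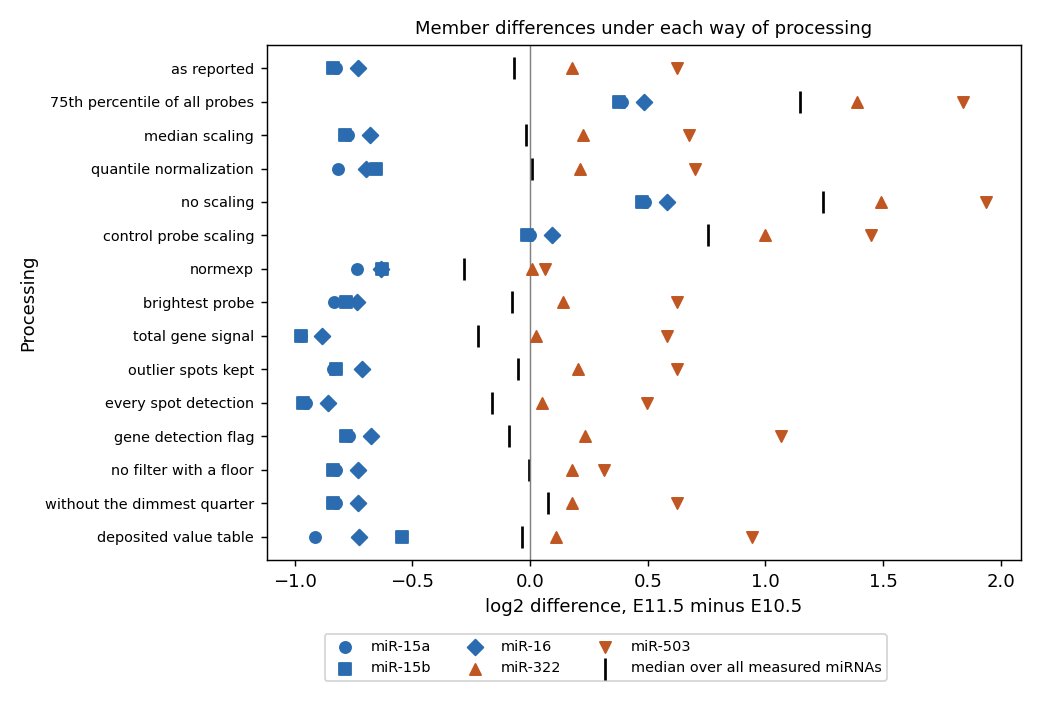
Log2 difference, E11.5 minus E10.5, of the 5 measured members under each of 15 ways of processing (rows), with the median over all measured miRNAs as a black tick. The scaling moves all members together, from a miR-15/16 median of -0.82 as reported to 0.49 with no scaling. miR-322 and miR-503 (orange) stay to the right of miR-15a, miR-15b and miR-16 (blue) in every row. Rows that differ only by a factor per array cannot change this order.

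miR-195 and miR-497, the chromosome 11 pair, known to restrain the cell cycle in muscle cells, were near the detection limit. The longer miR-195 probe ran from 10.4 to 30.2 at E10.5 (mean 17.6 ± 4.57, 0 of 19 spots well above background) and from 17.0 to 44.9 at E11.5 (mean 33.0 ± 6.74, 15 of 20). The longer miR-497 probe ran from 16.4 to 29.6 at E10.5 (mean 23.5 ± 3.50, 0 of 18) and from 26.4 to 43.0 at E11.5 (mean 35.8 ± 4.08, 19 of 20). The spots of the stages overlapped on both probes. The shorter probe of each, at 12.0 ± 5.41 and 17.1 ± 4.46 at E11.5, stayed under the detection rule throughout.

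For a miRNA detected at E11.5 only, a bound sets its E11.5 signal against the lowest detected probe of the E10.5 array. As scaled, neither miR-195 nor miR-497 had a bound above 1-fold. Without scaling miR-195 was at least 1.07-fold and miR-497 at least 1.16-fold higher at E11.5. Feature Extraction's own detection flag called miR-497 present at both stages, which gave it a scaled log2 difference of -0.56. That value averages both miR-497 probes, which had 0 of 19 and 0 of 18 spots well above background at E10.5. The authors' deposited table put miR-497 at 11.1 and 5.12, a log2 difference of -1.12, and miR-195 at its lowest value of 0.1 at E10.5 and at 4.72 at E11.5. In the same authors' deposited table the log2 differences were -0.91 for miR-15a, -0.55 for miR-15b, -0.73 for miR-16, 0.11 for miR-322 and 0.94 for miR-503.

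The opposite arms of the members' hairpins were nearly all dark. The array reads 8 of them (26 probes), of which 0 were above background at E10.5 and 1, miR-322*, at E11.5. Most miRNAs of the array were dark too: 144 of 1080 came above background on the E10.5 array and 199 on the other. Being dark thus does not set these 8 arms apart from the rest of the array. The Mir322 hairpin is printed with its arms in capitals, miR-322 first and miR-322* second, because it is the hairpin of this group with both arms detected.
Mir322: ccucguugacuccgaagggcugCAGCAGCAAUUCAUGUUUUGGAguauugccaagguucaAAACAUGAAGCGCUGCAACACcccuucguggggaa
One of the 4 miR-322* probes averaged 33.9 ± 9.42 at E11.5, with 6 of 10 spots well above background, against 6.998 ± 4.30 at E10.5. The means of its other probes were at most 1.70 at either stage. The arms opposite to miR-15a, miR-15b, miR-16, miR-195, miR-497 and miR-503 had means from -7.08 to 10.54 at E10.5. The negative controls of that array were at 7.87 ± 6.16, above most of these means.

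Other miRNAs of the cluster that holds miR-322 and miR-503 also came above background at E11.5. The cluster spans 7 hairpins in 6353 bases of the X chromosome (GRCm38.p6, 53047997 to 53054349, minus strand). Of the 11 other mature miRNAs listed for it, all of which the array reads, none was called at E10.5 and 6 were at E11.5: miR-322*, miR-351, miR-542-3p, miR-542-5p, miR-450a and miR-450b-3p. Of all miRNAs not detected at E10.5, 6.62% were detected at E11.5. The 2 brighter probes of miR-542-5p gave 17.6 ± 4.01 and 11.4 ± 3.46 at E10.5 against 65.2 ± 9.57 and 54.0 ± 8.19 at E11.5. One probe of miR-351 gave 10.1 ± 5.01 against 40.4 ± 6.21, and the other 3 stayed near 0.

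The detected probes of miR-542-3p gave 12.9 ± 5.34 and 7.33 ± 4.46 at E10.5 against 46.8 ± 4.37 and 30.6 ± 5.04 at E11.5. miR-450b-3p gave 17.4 ± 4.97 and 16.5 ± 7.17 against 48.4 ± 3.61 and 40.2 ± 8.66, and miR-450a gave 12.3 ± 5.998 against 33.0 ± 5.17. As scaled, none of the 6 had a bound above 1-fold. Without scaling, the bounds ran from 1.07-fold for miR-450a to 1.92-fold for miR-542-5p, none of them 2-fold. The 5 not detected at either stage were miR-503*, miR-351*, miR-450a-1*, miR-450a-2* and miR-450b-5p.

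**Figure D4:**
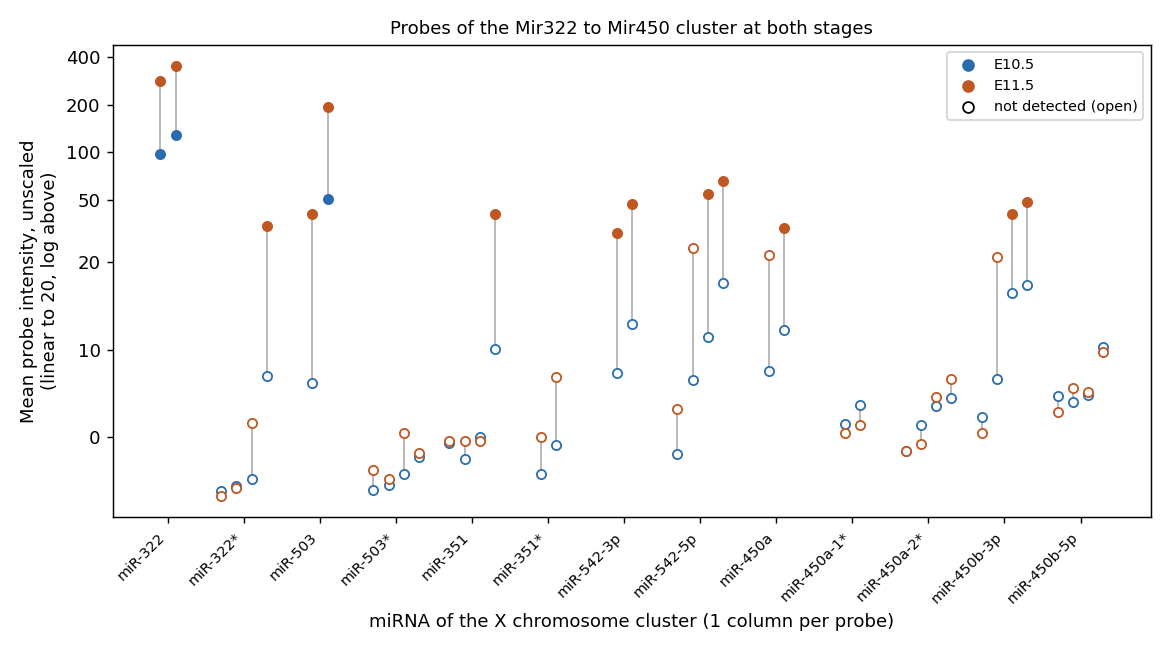
Mean unscaled intensity of each probe of the X chromosome cluster at E10.5 (blue) and E11.5 (orange), on an axis that is linear to 20 and logarithmic above, with filled points for detected probes. Probes of miR-322 and miR-503 are detected at E10.5, and 6 further miRNAs have a filled point at E11.5 only.

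Other miRNAs linked to the cell cycle differed in both directions as scaled. Of 11 miRNAs of the Mir17 cluster and its paralogs on the array, which promote proliferation, all 10 measured were below 0 as scaled. Over the 137 measured miRNAs, 52.6% were. The scaled median of the 10 was -0.98, beyond that of the miR-15/16 members (-0.82). Of the let-7 family, which restrains proliferation, all 6 measured were above 0, where 47.4% of the 137 were, with a median of 1.88. The miR-34 and miR-449 families, of which miR-34 is a p53 target, had 0 of 6 members above background at either stage. Over the whole array, 144 of 1080 miRNAs were at E10.5 and 199 at E11.5. Unscaled, the Mir17 median was 0.34 and the let-7 median 3.19.

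The miRNAs nearest to each member in scaled difference were, for miR-15a, miR-126-3p (-0.81), miR-17* (-0.80) and miR-205 (-0.85), and for miR-15b, miR-205, miR-93 (-0.85) and miR-130b* (-0.86). Those nearest to miR-16 were miR-690 (-0.74), miR-19b (-0.74) and miR-709 (-0.76). For miR-322 they were miR-26a (0.17), miR-433 (0.19) and miR-409-5p (0.19), and for miR-503 miR-376a (0.64), miR-127 (0.61) and miR-27b (0.61). All of these gaps were at most 0.026, and likeness over 2 stages is a weak match. Below 0, like the miR-15/16 values, were endothelial miR-126-3p at -0.81 and erythroid miR-451 at -0.60. The 4 measured epithelial miRNAs had a median of -1.37 and the range -1.59 to -0.85. Above 0 were the 3 measured mesenchymal miRNAs, with a median of 0.08, and neural miR-218 at 0.50. The summed mean intensity at E10.5 and E11.5, in that order, was 524 and 573 for the epithelial list and 275 and 387 for the endothelial one. It was 5012.5 and 13440 for the mesenchymal list. The part of epithelial, endothelial, muscle or other cells in the results was not tested.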

How the data were processed

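Spot intensity was used as the authors deposited it: subtracted for background with spatial detrending, according to the file headers, with no scaling of one array to the other. Both arrays lie on 1 slide. Software version 10.7.1.1 of Feature Extraction and mm9 stand in those headers, whereas the submitters' processing notes give 9.5.1.1. The mm9 probe positions of the files place the arms of Mir322 and Mir503 in the order opposite to RefSeq, so positions were taken from the RefSeq table. In the authors' deposited value table (linear intensity, scaling not stated), all 188 distinct E10.5 values above its floor of 0.1 recur in the E11.5 column. Its column medians were 0.1 and 0.1 over all miRNAs, and 45.0 and 26.6 above the floor.

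Outlier-flagged spots (2058 of 43200 miRNA spots at E10.5, 2118 at E11.5) were left out and no miRNA spot was saturated. Intensities were averaged per probe, divided by the array's 75th percentile (194 at E10.5, 482 at E11.5; taken over 218 probes detected on each), and log2 differences were averaged over a miRNA's probes detected on both arrays. Members, lists, alternatives and the rule for named miRNAs (all members, their opposite arms, seed mates, the Mir322 cluster and the 3 nearest miRNAs per member) were chosen with earlier results of these data known. The array name miR-450a stands for the listed miR-450a-5p. miR-195 and miR-497 were matched to the RefSeq names miR-195a-5p and miR-497a-5p, whose sequences hold their probes' targets. Alternatives included normexp background correction (offset 50), other scalings and detection rules, and the value table. The steps were tested on simulated data. Python 3.11.15, numpy 2.4.6, pandas 2.3.3, matplotlib 3.10.9, R 4.3.3 and limma 3.58.1 were used.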

Additional observations from a re-analysis of the deposited data

How the results depend on the processing

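Across 14 alternatives the miR-322 contrast with the mean of miR-15a, miR-15b and miR-16 ran from 0.67 to 0.997. The miR-503 contrast ran from 0.73 to 1.81, and all were above 0. Scalings by 1 factor per array cannot move either contrast. Beyond 2 spot SEs, the miR-322 contrast moved to 0.67 with normexp, 0.92 with the brightest probe and 0.84 with the deposited value table, and the miR-503 contrast to 0.73 (normexp), 1.81 (gene detection flag), 1.11 (floor in place of the filter) and 1.67 (table). The miR-15/16 median turned to 0.39 when the 75th percentile covered all probes and to 0.49 with no scaling. It was -0.0016 with control probes, -0.63 with normexp, -0.70 with quantile normalization, -0.73 with the table, -0.77 with median scaling and by the gene detection flag, -0.78 with the brightest probe, -0.95 where every spot had to be detected and -0.97 from the total gene signal. Under the all-probe percentile miR-15a, miR-15b and miR-16 were at 0.39, 0.38 and 0.48, and with no scaling at 0.49, 0.48 and 0.58, while miR-16 was at 0.091 with control probes. Unscaled log2 bounds of miR-195 and miR-497 were 0.096 and 0.21. Where every spot had to be detected, 5 of the 7 members were detected at E11.5, miR-195 and miR-497 not among them. Over the whole array, 177 of the 1080 miRNAs were detected at E11.5 under that rule. The miRNAs at least 2-fold higher numbered 5 as reported, 80 under the all-probe percentile, 88 unscaled, 49 with control probes, and 9 by either the gene detection flag or the table. Those 2-fold lower numbered 19, then 0 under each of those 3 scalings, 10 with the floor and 11 without the dimmest miRNAs. Leaving out an array was not run, since each stage has 1. miR-195, miR-497 and the shorter miR-503 probe lay too near background at E10.5 for a ratio. The miR-503 values by the gene detection flag and with the floor take in that shorter probe. The flag's miR-497 value rests on probes not detected at E10.5. The causes were not tested.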
